A study of Mus musculus with 12 samples.

Results

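The chemokines Cxcl1, Cxcl2, Cxcl3 and Cxcl5, the cytokine Csf3 (G-CSF) and the receptors Cxcr1 and Cxcr2 were followed through RNA-seq of mouse gingiva. The 7 genes were chosen by name as the ligands, the granulocyte growth factor and the receptors of neutrophil recruitment, and all 7 were among the 21965 genes of the count table. RNA from gingival tissue of mice under 12 weeks of age was sequenced in 12 libraries, 3 in each of 4 groups. WT naive mice were C57BL/6 wildtype animals without a ligature, and WT ligated mice were the same strain 8 days after a silk ligature was tied around a maxillary molar, a model of periodontitis in which bacteria collect at the thread. CybbKO naive and CybbKO ligated mice (Cybb-/-) went through the same 2 states and carried a disrupted Cybb, which encodes the catalytic subunit of the phagocyte NADPH oxidase Nox2, in the whole animal rather than in 1 cell type.

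The libraries held 27958819 to 42613423 counted reads each. Markers of oral epithelium summed to 56917 to 98242 CPM (the reads of a gene per 1000000 counted reads of its library) in the 12 libraries, as the label of gingiva requires. Cybb itself was counted at 41.6 to 63.7 CPM in the 6 libraries labelled CybbKO and at 4.19 to 15.2 CPM in the 6 WT libraries. The level of the transcript thus went against the label, and counts over the whole gene do not show whether the protein is made, so the mutant groups are called the libraries labelled CybbKO. WT naive 1 and WT naive 3 stood apart from the other naive libraries over all genes, and salivary gland markers summed to 56.0 CPM in the former and to 29066 CPM in the latter. CybbKO ligated 2 stood apart from the other ligated libraries labelled CybbKO, with fibroblast markers at 4459 CPM in sum against 12032 and 11100 CPM, and it had the lowest level of the 3 for each of the 7 genes. In whole tissue, more cells of a type and more RNA per cell cannot be told apart.

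The chemokines that share the Glu-Leu-Arg motif ahead of the CXC cysteines attract neutrophils, and in the mouse Cxcl1, Cxcl2, Cxcl3 and Cxcl5 do so chiefly through Cxcr2. Epithelial cells, fibroblasts, endothelium and myeloid cells can all make them when bacterial products, tumour necrosis factor or interleukins of the IL-17 family act on them, largely through NF-κB at their promoters and through slower decay of their mRNA. G-CSF, the product of Csf3, acts through Csf3r on the bone marrow to raise the output and the release of neutrophils. In the gingiva, neutrophils leave the blood continuously, and they do so in larger numbers when bacteria build up at the tooth.

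The ligand genes lie together on chromosome 5 of the mouse (GRCm38, GENCODE M21), all on the plus strand. Cxcl5 (ENSMUSG00000029371, chr5:90759360-90761624) comes first, followed by Ppbp, Pf4, Cxcl3 (chr5:90786103-90789600), Cxcl15, Cxcl1 (chr5:90891241-90893115) and Cxcl2 (chr5:90903871-90905938). Csf3 lies alone on chromosome 11 (chr11:98701263-98703629, plus strand). Both receptors are on chromosome 1, Cxcr2 at chr1:74153989-74161246 on the plus strand and Cxcr1 at chr1:74191785-74194631 on the minus strand.

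The promoters of the 3 ligands at the downstream end of the cluster are shown because these genes share a binding motif of the NF-κB type at nearly the same place. The RefSeq promoter table (GRCm38.p6) held 5 of the 7 genes, and Cxcl5 and Csf3 were not among them. The 150 bases up to the RefSeq start are given 5′ to 3′ on the plus strand, with the letters GGGAATTTCC in capitals, for Cxcl1 at chr5:90891095-90891244, Cxcl2 at chr5:90903749-90903898 and Cxcl3 at chr5:90785951-90786100.
Cxcl1: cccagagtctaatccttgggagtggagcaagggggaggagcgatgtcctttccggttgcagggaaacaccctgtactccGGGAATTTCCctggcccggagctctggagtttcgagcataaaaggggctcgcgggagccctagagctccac
Cxcl2: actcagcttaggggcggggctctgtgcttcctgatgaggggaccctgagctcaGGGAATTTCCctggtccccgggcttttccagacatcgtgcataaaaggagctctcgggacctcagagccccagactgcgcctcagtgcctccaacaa
Cxcl3: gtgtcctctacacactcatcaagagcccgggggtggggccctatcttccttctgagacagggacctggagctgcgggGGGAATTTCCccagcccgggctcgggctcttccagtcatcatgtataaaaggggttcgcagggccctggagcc
The longest run that the 3 windows share was GGGAATTTCCC, 11 bases that 14 of 32851 promoters of the table (0.0426%) held, and the motif is its first 10 bases. The motif began 71 bases upstream of the start in Cxcl1, 97 in Cxcl2 and 73 in Cxcl3. The Cxcl2 window ends at 90903898, past the GENCODE gene start at 90903871, so the distances in Cxcl2 depend on the annotation used. Both strands were searched over the whole stretch held for each promoter, which is longer than the 150 bases printed. In all, 29 promoters (0.0883%) held these 10 letters, which were picked because the 3 genes share them. The looser form GGGNNTTTCC, which contains the first, was in 1.63% of all promoters. It occurred a second time in Cxcl1, 89 bases upstream and on the minus strand, and a second time in Cxcl2, 78 bases upstream on the plus strand. All 3 promoters also held ATAAAAG, 34, 57 and 29 bases upstream of the start in Cxcl1, Cxcl2 and Cxcl3, against 5.42% of all promoters. In Cxcl3 it overlapped TATAAA, which was in 13.6% of promoters. TGANTCA, the form bound by AP-1 proteins, was in 7.81% of all promoters and in none of the 5 promoters of this set. The promoters of Cxcr1 and Cxcr2 held neither NF-κB form, and that of Cxcr1 held ATAAAAG on the minus strand, 57 bases upstream.

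Among the ligands, Cxcl5 was the most abundant per length of transcript in every library. Its level was 168, 93.6 and 102 CPM in WT naive libraries 1, 2 and 3, and 83.9, 244 and 809 CPM in WT ligated libraries 1, 2 and 3. In the libraries labelled CybbKO it was 163, 178 and 184 CPM in the naive state and 567, 217 and 646 CPM after ligature. WT ligated 1 was thus the lowest of all 12 libraries and WT ligated 3 the highest, and the WT groups overlapped. The 3 ligated libraries labelled CybbKO lay above their naive libraries, which differed among themselves by only 1.13-fold from lowest to highest. The ligature response, the log2 fold change of ligated over naive tissue, was 1.65 (SE 0.64) in WT and 1.45 (SE 0.63) in CybbKO. Neither passed the test, with adjusted p = 0.178 and 0.162 (edgeR's quasi-likelihood test, Benjamini-Hochberg adjustment over 15046 genes, called below 0.05). The WT response rested on single libraries, being 0.44 without WT ligated 3 and 2.16 without WT ligated 1.

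**Figure D1:**
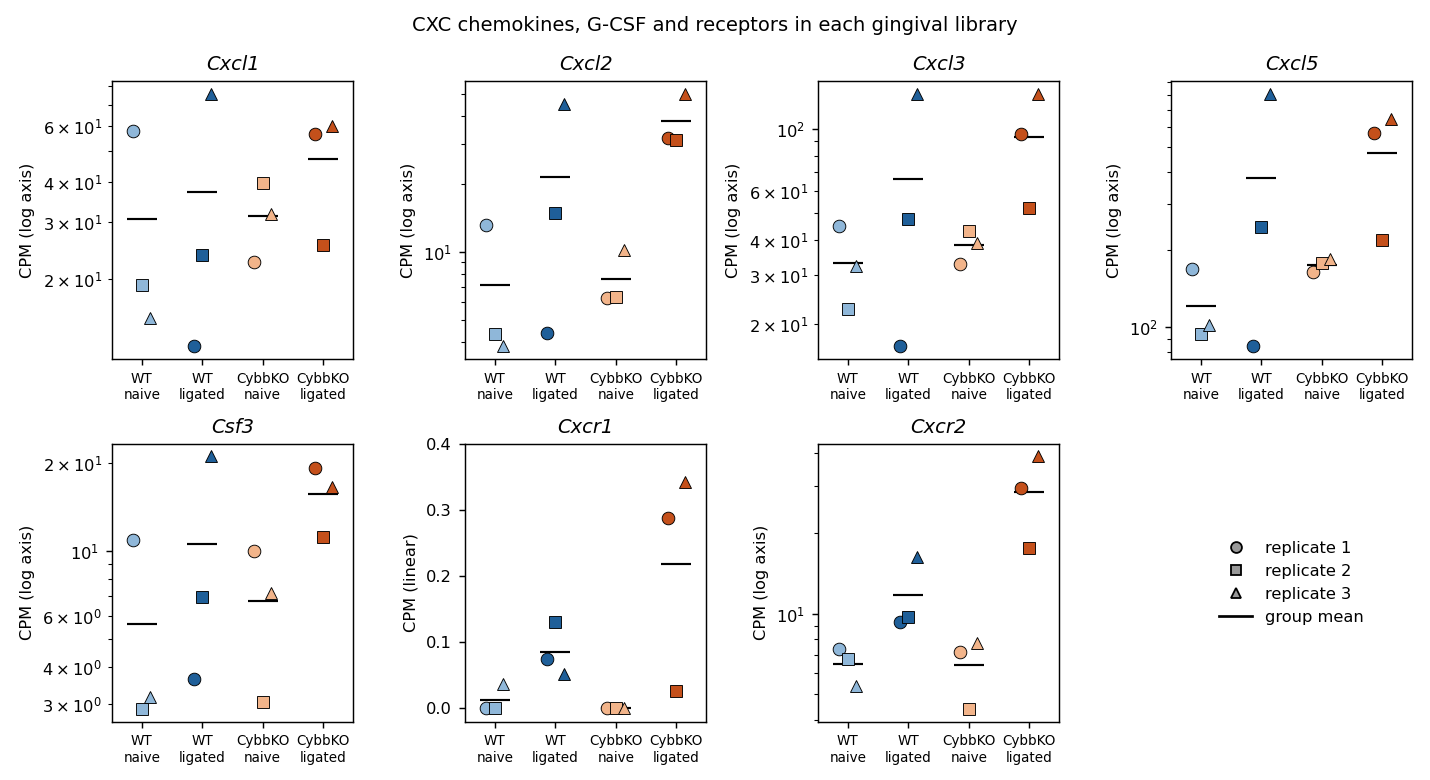
CPM of each of the 7 genes in each library, in 4 groups of 3, on a log axis except for Cxcr1. Symbols stand for the replicate number, which does not link mice of different groups, and lines for group means. Cxcr2 is the gene whose ligated libraries labelled CybbKO, at 17.6 to 38.9 CPM, all lie above the 3 WT ligated libraries, at 9.28 to 16.3 CPM, while the ligands and Csf3 overlap between those groups.

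Cxcl2, known as macrophage inflammatory protein-2 in the mouse, had the largest response of the ligands in CybbKO and in the mean of the genotypes, while in WT that of Cxcl5 was larger (1.65 against 1.59). Cxcl2 was at 13.2, 4.33 and 3.83 CPM in WT naive 1, 2 and 3 and at 4.41, 14.9 and 45.0 CPM in WT ligated 1, 2 and 3. In the libraries labelled CybbKO it went from 6.26, 6.30 and 10.2 CPM in naive tissue to 32.1, 31.4 and 50.1 CPM in ligated tissue. WT ligated 1 was again at the level of naive tissue, while the lowest ligated library labelled CybbKO was above every naive library. Cxcl2 rose in CybbKO by 2.32 on the log2 scale (SE 0.70, 95% interval 0.80 to 3.84, adjusted p = 0.0483), and this call was lost on leaving out any of 7 of the 12 libraries, at values of 2.07 to 2.59. In WT the change was 1.59 (SE 0.69, interval 0.09 to 3.08, adjusted p = 0.224), and 0.43 without WT ligated 3.

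Cxcl3 and Cxcl1 stood on either side of this pattern. Cxcl3 was at 44.6, 22.6 and 32.2 CPM in WT naive, 16.6, 47.4 and 133 CPM in WT ligated, 32.8, 43.1 and 38.9 CPM in CybbKO naive and 95.3, 51.9 and 133 CPM in CybbKO ligated libraries, in the order of replicates 1 to 3. As for Cxcl5, WT ligated 1 was the lowest of all 12, and the 3 CybbKO ligated libraries lay above the 3 naive ones. The change was 1.29 in CybbKO (SE 0.58, adjusted p = 0.171) and 0.99 in WT (SE 0.58, adjusted p = 0.369). Cxcl2 and Cxcl3 transcripts share a run of 157 identical bases, and 4.57% of the 75-base windows of Cxcl2 also occur in Cxcl3, so reads from there could have been dropped or split between the genes.

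Cxcl1, the keratinocyte-derived chemokine KC, was the ligand with the least change after ligature. Cxcl1 was at 57.8, 19.2 and 15.1 CPM in WT naive and 12.3, 23.8 and 75.8 CPM in WT ligated libraries, and at 22.5, 39.7 and 31.8 CPM in CybbKO naive and 56.9, 25.5 and 59.99 CPM in CybbKO ligated libraries. Here the naive and ligated libraries overlapped in both genotypes, and WT naive 1 was below only WT ligated 3 and CybbKO ligated 3. The log2 fold change was 0.28 in WT (SE 0.64, interval -1.11 to 1.67, adjusted p = 0.849) and 0.60 in CybbKO (SE 0.64, interval -0.79 to 1.99, adjusted p = 0.582). These intervals reach from a fall to a rise of more than 2-fold, so the data set no close limit on a change of Cxcl1.

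Csf3, a gene of low level here, followed the ligands. Csf3 was at 10.9, 2.88 and 3.17 CPM in WT naive, 3.66, 6.99 and 21.1 CPM in WT ligated, 10.04, 3.05 and 7.17 CPM in CybbKO naive and 19.3, 11.2 and 16.6 CPM in CybbKO ligated libraries. WT naive 1 was high among the naive libraries and WT ligated 1 low among the ligated ones, whereas the CybbKO groups did not overlap. The changes were 0.90 (SE 0.67, adjusted p = 0.489) in WT and 1.22 (SE 0.66, adjusted p = 0.263) in CybbKO. The fewest reads behind a Csf3 value were 87, in WT naive 3, so counting alone was not what set these errors.

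Cxcr2, the receptor of these ligands on neutrophils, had the lowest biological coefficient of variation, edgeR's measure of the spread between replicates over all groups, of the 6 genes that could be tested. Cxcr2 was at 7.34, 6.77 and 5.36 CPM in WT naive and 9.28, 9.71 and 16.3 CPM in WT ligated libraries, and at 7.19, 4.38 and 7.75 CPM in CybbKO naive and 29.6, 17.6 and 38.9 CPM in CybbKO ligated libraries. All ligated libraries lay above the naive ones of their genotype, WT ligated 1 included. Cxcr2 rose in CybbKO by 2.16 on the log2 scale (SE 0.33, interval 1.44 to 2.88, adjusted p = 0.00279), and stayed called in 12 of 12 fits that left out 1 library, with a value of 2.41 without CybbKO ligated 2. In WT the change was 0.86 (SE 0.32, interval 0.15 to 1.56, adjusted p = 0.165).

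Cxcr1, the second receptor, was close to undetected and failed the filter on low counts, so 6 of the 7 genes were tested. It had 0, 0 and 1 counts in WT naive, 3, 5 and 2 in WT ligated, 0, 0 and 0 in CybbKO naive and 11, 1 and 15 in CybbKO ligated libraries. The 10 counts of WT ligated tissue against 1 in WT naive tissue gave a depth-corrected ratio of 7.86, with an exact 95% interval of 1.12 to 341. With 27 counts against 0, the pooled level in CybbKO ligated tissue was at least 7.79-fold higher than the limit that 3 counts over the naive group would set. These limits cover counting error only, and 26 of the 27 counts came from 2 libraries. In fits that did test Cxcr1 it was called higher after ligature in CybbKO by DESeq2 (adjusted p = 0.0181) and by edgeR with no filter on low counts (adjusted p = 0.0296). In the mean response it was called by DESeq2 (adjusted p = 0.00617) and with no filter (adjusted p = 0.0150, edgeR). The CybbKO call was lost in edgeR without CybbKO naive 1, 2 or 3 (adjusted p = 0.0674, 0.0708 and 0.0691). Without CybbKO ligated 1 or CybbKO ligated 3, the libraries with most of its counts, Cxcr1 again failed the filter, and these calls were not checked there. With 0 counts in CybbKO naive tissue, the fitted fold is not given.

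**Figure D2:**
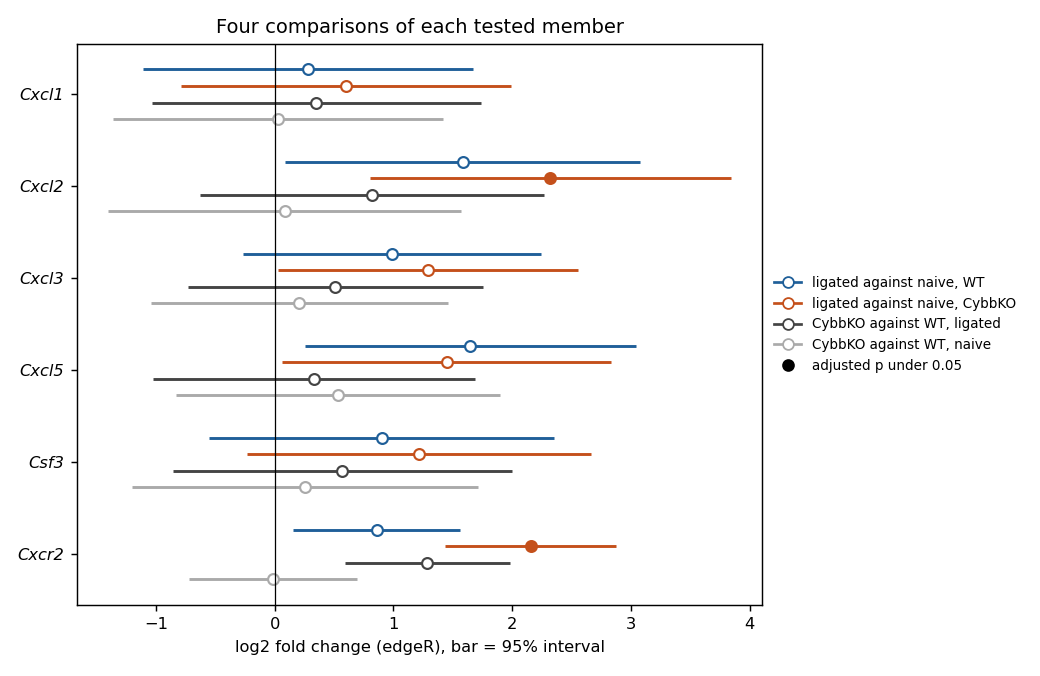
Log2 fold changes of the 6 tested genes with 95% intervals from edgeR, for ligated against naive tissue in each genotype and for CybbKO against WT in each state. Filled circles have an adjusted p under 0.05: Cxcl2 (2.32) and Cxcr2 (2.16) in the CybbKO ligature response.

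Counted together, 2 of the 6 tested genes rose in the CybbKO ligature response, where 13% of all tested genes were called and 9.95% were called higher. In the WT response 0 of the 6 passed, where 3.2% of all genes were called. At an unadjusted p under 0.05 the counts were 4 of 6 in CybbKO and 3 of 6 in WT, against 27.7% and 19.9% of all genes, and DESeq2 also called 0 in WT. The ligated libraries lay wholly above the naive ones for 5 of the 6 genes in CybbKO, against 18.5% of all genes, and for Cxcr2 alone in WT, against 13.3%. The median log2 fold change of the 6 was 1.37 in CybbKO and 0.95 in WT, beside medians of -0.03 over all tested genes in both.

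Averaged over the genotypes, so that all 12 libraries bear on the value, Cxcl2, Cxcl5 and Cxcr2 rose after ligature. This was 3 of 6 genes, where 24.4% of all tested genes were called and 14.7% were called higher. Cxcl2 rose by 1.95 (SE 0.49, adjusted p = 0.0136) and Cxcr2 by 1.51 (SE 0.23, adjusted p = 0.00109) on the log2 scale, and both were called on leaving out any 1 library. Cxcl5 rose by 1.55 (SE 0.45, adjusted p = 0.0272), a call kept in 5 of 12 such fits, and the value was 0.94 without WT ligated 3. Cxcl3 was at 1.14 (SE 0.41, adjusted p = 0.0620), Csf3 at 1.06 (SE 0.47, adjusted p = 0.123) and Cxcl1 at 0.44 (SE 0.45, adjusted p = 0.515). Cxcl3 was called without WT ligated 1 (1.40) or without CybbKO ligated 2 (1.28), and Csf3 without WT naive 1 (1.51). An exact two-sided permutation test within genotypes gave p = 0.005 for Cxcr2, the smallest its arrangements allow, 0.01 for Cxcl2, 0.04 for Cxcl5, 0.08 for Csf3, 0.1 for Cxcl3 and 0.49 for Cxcl1.

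Between the genotypes, 0 of the 6 genes passed the test in ligated tissue, where 1 gene of all those tested (0.00665%), Cybb, was called. For Cxcr2 the ligated libraries labelled CybbKO lay above all WT ones, which held for 5% of all genes, and the difference was 1.29 (SE 0.32, interval 0.59 to 1.98, adjusted p = 0.996). At an unadjusted p under 0.05, Cxcr2 was the 1 gene of the 6, against 3.34% of all genes. The ligands and Csf3 overlapped between the genotypes. Their differences were 0.35 for Cxcl1 (interval -1.04 to 1.74), 0.82 for Cxcl2 (-0.63 to 2.27), 0.51 for Cxcl3 (-0.73 to 1.75), 0.33 for Cxcl5 (-1.03 to 1.69) and 0.57 for Csf3 (-0.86 to 2.00). Differences of more than 2-fold towards CybbKO were inside each of these intervals. Without WT ligated 3, the differences of Cxcl1, Cxcl2, Cxcl3, Cxcl5 and Csf3 were 1.40, 1.97, 1.55, 1.54 and 1.56, and without WT ligated 1 they were -0.08, 0.32, 0.04, -0.15 and 0.14. Without CybbKO ligated 2 they were 0.65, 0.94, 0.80, 0.68 and 0.76, and that of Cxcr2 was 1.54. With 3 libraries against 3, an exact permutation test cannot give less than p = 0.1, the value it gave for Cxcr2. For Cxcr1, the 27 counts of CybbKO ligated and the 10 of WT ligated tissue gave a ratio of 2.64 (exact 95% interval 1.24 to 6.12, counting error only).

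In naive tissue 0 of the 6 genes differed between the genotypes, where 0.00665% of all genes were called, and 0 of 6 had an unadjusted p under 0.05, against 2.03% of all genes. The log2 differences ran from -0.01 for Cxcr2 (interval -0.72 to 0.69) to 0.53 for Cxcl5 (-0.83 to 1.90). The difference between the 2 ligature responses was tested directly as an interaction, for which 0 of the 6 and 0 of all 15046 genes were called (0%). Cxcr2, with an interaction of 1.30 (SE 0.45, interval 0.31 to 2.29, adjusted p = 1.00), was the 1 gene of the 6 with an unadjusted p under 0.05, against 2.27% of all genes. The interactions of the ligands and Csf3 lay between -0.20 for Cxcl5 (interval -2.12 to 1.72) and 0.74 for Cxcl2 (-1.33 to 2.81). DESeq2 called 0 of the genes in each of these 3 comparisons as well.

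The ligands and Csf3 were among the most variable genes of this tissue between mice of 1 group. Their biological coefficients of variation were 0.477 to 0.554, above those of 95.1% to 97.1% of tested genes, whose median was 0.197. That of Cxcr2 was 0.281, above 76.6% of genes. Within WT ligated tissue Cxcl2 differed 10.2-fold, Cxcl5 9.64-fold and Cxcl3 8.02-fold between the lowest and the highest library, and Cxcr2 1.76-fold. In CybbKO naive tissue the same genes differed 1.62-, 1.13- and 1.31-fold and Cxcr2 1.77-fold, and in CybbKO ligated tissue 1.597-, 2.98- and 2.57-fold and Cxcr2 2.21-fold. By this ratio of highest to lowest library, Cxcr2 thus varied more than these 3 ligands in CybbKO naive tissue. By the SD relative to the mean, Cxcl2 varied slightly more than Cxcr2 there, and Cxcl3 and Cxcl5 varied less. Of the 6 tested genes, WT ligated 3 exceeded all WT naive libraries for 6, WT ligated 2 for 4 and WT ligated 1 for 1. Among the libraries labelled CybbKO, ligated 1 and 3 exceeded all naive ones for 6 of 6 genes and ligated 2 for 5.

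The ligands moved together from mouse to mouse. Over the 12 libraries the Pearson correlation of log2 CPM was 0.975 between Cxcl3 and Cxcl5, and 0.982 once the group means were taken out. The lowest of the 15 pairs was Cxcl1 with Cxcr2, at 0.519. These are descriptions over libraries that share the ligature contrast and their depth, with no test. Cxcl1 with Cxcl2, at 0.777, was the lowest pair among the ligands.

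For each gene the 3 genes of most similar pattern over the 12 libraries, by the same measure, were as follows. Cxcl5 was closest to Chst11, a chondroitin sulphotransferase (0.980), Cxcl3 (0.975) and Pfkfb3, a regulator of glycolysis (0.967), and Cxcl3 to Cxcl5 (0.975), Pfkfb3 (0.966) and Chst11 (0.962). Cxcl2 was closest to Aif1, a marker of macrophages (0.973), Slfn2 (0.955) and 5430427O19Rik (0.947), and Csf3 to Trem3, a receptor of myeloid cells (0.943), Hbegf, a ligand of the EGF receptor (0.924), and Syt13 (0.910). Cxcl1 was closest to the antiviral factor Zc3hav1 (0.925), the survival factor Mcl1 (0.922) and the guanine deaminase Gda (0.919). Cxcr2 was closest to the inflammasome sensor Nlrp3 (0.988), Lilr4b (0.982) and Cd33 (0.981), both receptors of myeloid cells. These genes were picked as the highest of 15046.

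Levels of different genes can be compared only per length of transcript. Per kilobase of exon (CPM per kilobase, RPKM), Cxcl5 was the highest of the 7 genes in 12 of 12 libraries, at 45.1 to 434 RPKM, and Cxcr1 the lowest, at 0 to 0.230 RPKM. Cxcl1 and Cxcl3 lay between, at 6.54 to 40.4 and 4.75 to 38.1 RPKM, and neighbours in the order were not separated, Cxcl1 being above Cxcl3 in 8 of 12 libraries. Cxcl2 (1.85 to 24.2 RPKM), Csf3 (2.04 to 14.9 RPKM) and Cxcr2 (1.44 to 12.8 RPKM) followed, and Cxcl2 exceeded Csf3 in 7 of 12 libraries. For Cxcl1, Cxcl2 and Cxcl3 the annotated exons, joined over all transcripts, covered the whole gene, because transcripts that keep introns are included. Over the spliced transcript with the longest coding sequence instead, a length chosen after the data were seen (953 bases for Cxcl1, 1016 for Cxcl3 and 1575 for Cxcl5), Cxcl5 was still the highest in 12 of 12 libraries, but Cxcl3 was then above Cxcl1 in 11 of them and Cxcl2 above Csf3 in 11.

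Cxcl5 made up 64.3% to 81.2% of the summed per-length level of the 4 ligands by the joined exons, and 47.7% to 67.2% by the spliced transcripts. Cxcl1 had 15.9% ± 5.65 (SD, n = 3) of the sum in WT naive and 8.82% ± 2.05 in WT ligated tissue, and 13.2% ± 2.69 in CybbKO naive and 7.93% ± 0.635 in CybbKO ligated tissue. Its share in the 3 CybbKO ligated libraries was below that in the 3 naive ones, and the WT groups overlapped. Cxcl2 had 3.37% ± 1.07 and 4.03% ± 0.372 in WT naive and ligated tissue, and 2.91% ± 0.736 and 6.36% ± 2.79 in CybbKO. The sum itself ran from 58.5 RPKM in WT ligated 1 to 535 RPKM in WT ligated 3.

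**Figure D3:**
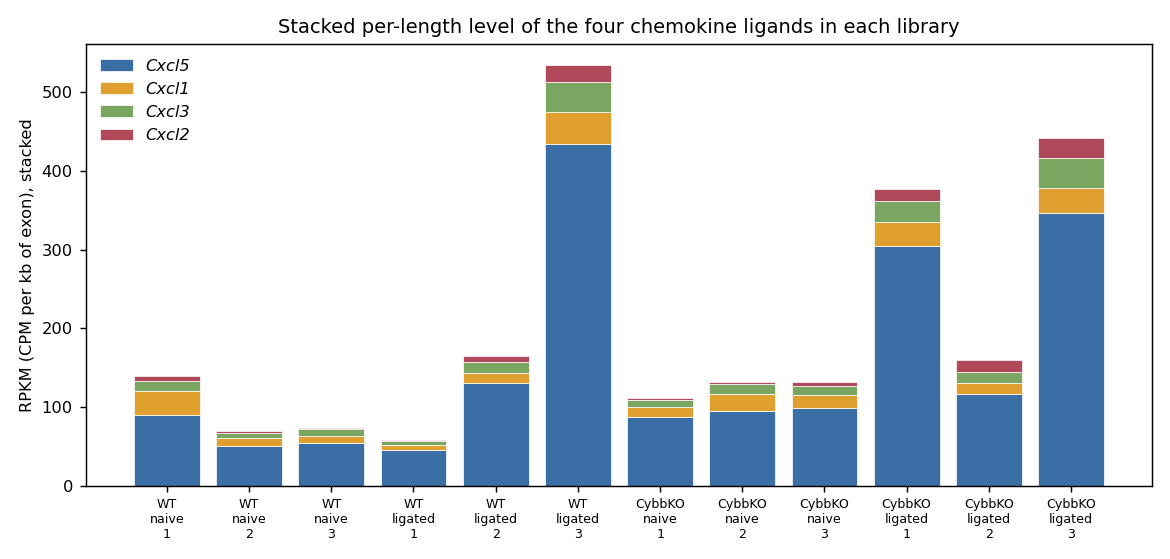
Stacked RPKM (by joined exons) of Cxcl5, Cxcl1, Cxcl3 and Cxcl2 in each of the 12 libraries. The sum was 58.5 in WT ligated 1 and 535 in WT ligated 3, and Cxcl5 is the largest block in each bar.

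In the cluster on chromosome 5, Ppbp, whose product Cxcl7 is another ligand of Cxcr2 known from platelets, was more abundant per length than Cxcl5 in every library. It was at 197, 209.6 and 208 CPM in WT naive, 128, 493 and 1503 CPM in WT ligated, 372, 398 and 429.6 CPM in CybbKO naive and 869, 527 and 1119 CPM in CybbKO ligated libraries. WT ligated 1 was the lowest and WT ligated 3 the highest library, as for Cxcl5. Its mean ligature response was 1.43 (SE 0.43, adjusted p = 0.0315). The naive libraries labelled CybbKO lay above the WT naive ones, which held for 2.08% of all genes, and the difference was 0.97 (SE 0.60, adjusted p = 1.00). The 6 platelet and megakaryocyte markers summed to 9.75 to 18.6 CPM in the 12 libraries, with Itga2b alone at 7.86 to 15.4 CPM. Of the 2 that could be tested, 0 were called in either ligature response, beside 13% of all genes in CybbKO and 3.2% in WT. The part of platelets in the level of Ppbp was not tested.

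**Figure D4:**
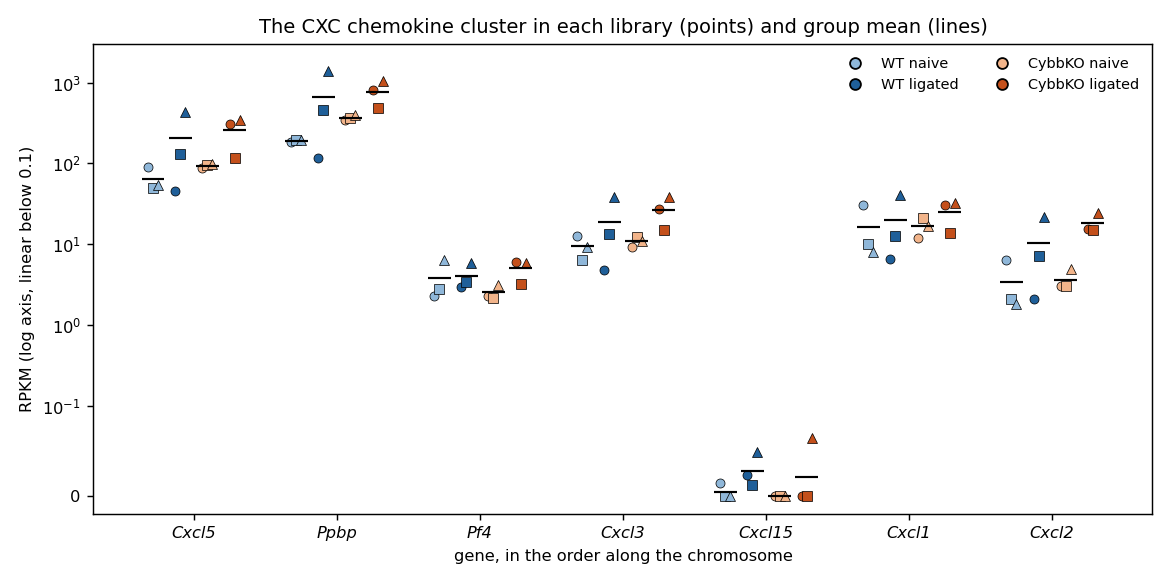
RPKM (by joined exons) of the chemokine genes of the cluster in their order along the chromosome, with 1 point per library and lines for group means, on an axis that is logarithmic above 0.1. Ppbp lies at 118 to 1388 RPKM and Cxcl5 at 45.1 to 434 RPKM, while Cxcl15, between Cxcl3 and Cxcl1, lies at 0 to 0.064 RPKM.

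The rest of the CXC family was read from a list of 17 genes, 13 of them tested. In the CybbKO ligature response 4 of the 13 rose and 0 fell, beside 9.95% of all tested genes called higher. In WT 0 were called, beside 3.2% of all genes, and 6 had an unadjusted p under 0.05, beside 19.9%. The 4 were Cxcl12, the ligand that holds leukocytes in the bone marrow (1.21, SE 0.24), its receptor Cxcr4 (2.00, SE 0.46), Cxcl17 of mucosal epithelia (4.85, SE 1.41) and Ackr1, the chemokine-binding receptor of venules and red cells (1.67, SE 0.29). In the mean response 6 rose, Ppbp and Cxcr6 in addition, beside 14.7% of all genes called higher and 9.66% called lower, and Cxcl13, the B cell chemokine, fell by 1.73 on the log2 scale (SE 0.49, adjusted p = 0.0248). The list was called in 0 genes between the genotypes in either state and in the interaction. Cxcl9, a ligand of Cxcr3 and not of Cxcr2, had the largest difference of the list in ligated tissue, 4.66 (SE 1.47, adjusted p = 1.00), and was chosen after its value was seen. It was at 0.299, 0.523 and 3.04 CPM in WT ligated and 7.13, 74.6 and 15.9 CPM in CybbKO ligated libraries, so that CybbKO ligated 2 held most of the level of its group. In naive tissue Cxcl9 was at 18.9, 0.980 and 0.0729 CPM in WT and 3.35, 5.38 and 4.24 CPM in CybbKO libraries.

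Of the other colony-stimulating factors and receptors, 6 of 8 tested genes rose in CybbKO, beside 9.95% of all genes called higher, and 3 of 8 in WT, beside 2.31% called higher, and 0 fell. Csf3r, the receptor of G-CSF, was at 5.51, 6.64 and 9.73 CPM in WT naive, 12.3, 20.4 and 32.9 CPM in WT ligated, 18.5, 3.44 and 13.6 CPM in CybbKO naive and 79.7, 34.5 and 83.5 CPM in CybbKO ligated libraries. Its ligated libraries lay above the naive ones in both genotypes, those of Csf3 in CybbKO but not in WT. Csf3r rose by 2.48 in CybbKO (SE 0.56, adjusted p = 0.0146), and its WT change was 1.58 (SE 0.55, adjusted p = 0.135). The genes called in both genotypes were Csf1r, the macrophage growth factor receptor (0.84 in WT and 1.62 in CybbKO), and Csf2rb and Csf2rb2, chains of the receptors of GM-CSF, IL-3 and IL-5. Csf2rb (1.13 and 2.10) and Csf2rb2 (0.94 and 1.44) share runs of up to 242 identical bases, so the split of reads between them is uncertain.

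Of the genes that act ahead of these chemokines, Il17a, a cytokine of T cells, rose in CybbKO by 2.71 on the log2 scale (SE 0.80, adjusted p = 0.0443), and its WT value was 3.31 (SE 0.93, adjusted p = 0.0769). Il17a was low in all libraries, at 0 to 0.346 CPM in naive and 0.419 to 3.26 CPM in ligated tissue. In the mean response Il17f was called as well, with 0 counts in the 3 WT naive libraries, so that no fold is given. A further list of 11 genes held NF-κB subunits and regulators, C/EBP transcription factors and regulators of mRNA decay. Of these, 1 rose in CybbKO and 0 fell, a share close to the 9.95% of all tested genes called higher. This was Tnfaip3, an inhibitor of NF-κB signalling (0.92, SE 0.22, adjusted p = 0.0200). In WT 0 passed and 0 had an unadjusted p under 0.05, beside 19.9% of all genes. In CybbKO 4 of the 11 had an unadjusted p under 0.05, all of them higher, beside 27.7% of all genes. In the mean response 2 of the 11 rose, beside 14.7% of all tested genes, Nfkbiz, the NF-κB cofactor IκBζ, by 0.61 (SE 0.20, adjusted p = 0.0421) and Tnfaip3 by 0.55 (SE 0.16, adjusted p = 0.0249).

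The transcripts of neutrophils themselves rose after ligature at the level of groups. Of 12 neutrophil markers, 10 rose in CybbKO after ligature, beside 9.95% of all tested genes called higher, and 0 in WT, beside 2.31%. In WT 9 had an unadjusted p under 0.05, beside 19.9% of all genes, and the medians were 2.80 in CybbKO and 2.01 in WT. All 12 rose in the mean response, beside 14.7% of all genes called higher. Between the genotypes in ligated tissue 0 of the 12 were called, with 6 at an unadjusted p under 0.05, beside 3.34% of all genes, and a median difference of 1.41, against 1.29 for Cxcr2. The summed level of the list was 119 to 214 CPM in WT naive, 308 to 634 CPM in WT ligated, 113 to 156 CPM in CybbKO naive and 313 to 599 CPM in CybbKO ligated libraries, and no marker was at 0 in all libraries of a group. Ltf, which glands also make, held 55.3% to 93.1% of that sum. From library to library the markers did not all follow Cxcr2. CybbKO ligated 2, the lowest of its group for Cxcr2, was the highest of the 3 for 7 of the 12 markers and the lowest for 3. Retnlg, a granulocyte product, was at 8.12, 17.8 and 9.49 CPM in CybbKO ligated 1, 2 and 3, and Ngp, a neutrophil granule protein, at 1.07, 5.64 and 0.753 CPM.

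Without Ltf the sum was 20.2, 20.5 and 24.3 CPM in WT naive, 26.3, 44.1 and 69.9 CPM in WT ligated, 36.1, 15.3 and 26.7 CPM in CybbKO naive and 127, 98.3 and 140.1 CPM in CybbKO ligated libraries. Set against it, Cxcr2 amounted to 22.04% to 36.3% in WT naive, 22.03% to 35.3% in WT ligated, 19.9% to 28.995% in CybbKO naive and 17.9% to 27.8% in CybbKO ligated libraries, so that all 4 groups overlapped. In CybbKO ligated tissue Csf3r (34.5 to 83.5 CPM) and Il1r2, the decoy receptor of interleukin-1 (17.9 to 28.1 CPM), made up much of that sum. In WT naive 1, 2 and 3 Il1r2 alone was at 12.2, 10.7 and 10.8 CPM. The makeup of the sum thus differed between groups, and the ratio was not computed without Il1r2. The part of neutrophil number in the level of Cxcr2 was not tested.

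**Figure D5:**
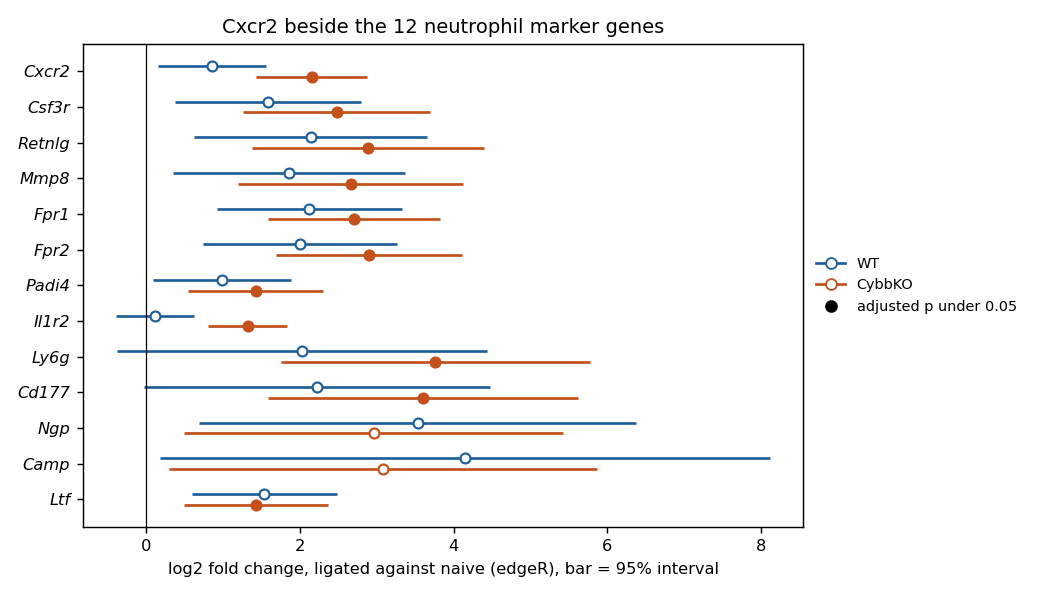
Log2 fold changes of ligated against naive tissue with 95% intervals, in WT and CybbKO, for Cxcr2 and the 12 neutrophil markers. Cxcr2, at 0.86 and 2.16, lies within the range of the markers, which runs from 0.11 to 4.15 in WT and from 1.32 to 3.76 in CybbKO.

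Other cell types also moved with ligature, where 9.95% of all tested genes were called higher in CybbKO, 2.31% in WT and 14.7% in the mean response. Monocyte and macrophage markers rose in 10 of 10 genes in CybbKO and 3 of 10 in WT, fibroblast markers in 7 and 4 of 8, and endothelial markers in 7 and 3 of 8, while 0 of the 8 oral epithelial markers were called in either response. Osteoclast markers rose in 3 of 5 tested genes in CybbKO, 1 of 5 in WT and 5 of 5 in the mean response. Their sum was 126, 163 and 373 CPM in WT ligated 1, 2 and 3 and 352, 109 and 291 CPM in CybbKO ligated 1, 2 and 3, the same order of libraries as for Cxcl5 in WT. In CybbKO, ligated 2 was the lowest for both. Of the B and plasma cell markers, 2 of 3 tested genes fell in CybbKO, beside 3.04% of all genes called lower, and in the mean response, beside 9.66%, and 0 were called in WT. In WT ligated 1, the library with the lowest Cxcl1, Cxcl3 and Cxcl5, the sums were 99.8 CPM for monocytes and macrophages and 6060 CPM for fibroblasts, against highest WT naive sums of 73.1 and 3349 CPM, and 86658 CPM for oral epithelium, within the WT naive range. The part of any of these cell types in the levels of the chemokines was not tested.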

How the data were processed

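Gingival RNA was sequenced by the authors as 12 stranded mRNA libraries. The deposited counts are whole numbers of reads per Ensembl gene on GRCm38 (mm10), not normalized. The methods name STAR and featureCounts with reverse strand, and the submitters' processing notes name HTSeq 0.10.0 and FastQC 0.10.1, so the counting tool is not settled. Groups and replicate numbers came from the sample labels, which do not say that a number links mice.

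Symbols, positions and exon lengths came from GENCODE M21 (21939 of 21965 genes, 26 not matched). Genes passing edgeR's filterByExpr (15046) were fitted jointly over 12 libraries with edgeR 4.0.16 in R 4.3.3 (TMM factors 0.918 to 1.08, quasi-likelihood F test, Benjamini-Hochberg adjustment, called below 0.05). CPM in the text are scaled by TMM, and correlations used log2 CPM with a prior count of 2. Depth was 27958819 to 42613423 counts per library, and the common biological coefficient of variation of 0.240 limited precision more than counting did, except for Cxcr1. Replicates were taken as separate mice, which the sample titles do not state, and no 2 libraries of the same group agreed within sampling noise. Alternatives were DESeq2 1.42.0, its size factors in edgeR, library size scaling, other filters on low counts, the 6 libraries compared alone, the replicate number as a block, and each library left out. The fitting procedure was tested on simulated data.

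The 7 genes and the gene lists were chosen with earlier results of these data known. All 7 are named, and of the CXC, colony-stimulating factor, IL-17 and transcript control lists, genes called in a comparison. The text leaves out some called and some abundant genes of these lists that the rule also covers. 1 result of the IL-17 list is not reported here, so no count over that list is given, and the genes named from it do not stand for the list.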

Additional observations from a re-analysis of the deposited data

How the results depend on the processing

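Of the 6 comparisons, the WT ligature response, both genotype differences and the interaction held 0 called genes of the set under every alternative run. In the CybbKO ligature response 2 were called, but 4 in a fit of only the 6 libraries compared, 1 with the replicate number as a block and 1 to 3 on leaving out single libraries. In the mean ligature response 3 were called, but 5 with DESeq2 and 2 to 5 on leaving out single libraries. Cxcr1, which failed the filter on low counts, enters the counts of DESeq2, of the fit with no filter, of the fit without 2 WT naive libraries and of 10 of the 12 fits that leave out a library, all but those without CybbKO ligated 1 or 3. The cause of these shifts was not tested. Same-numbered libraries of different groups did not deviate together (r of -0.228 to 0.277 over 18 pairs), so the numbers were not taken to pair the mice. Under the block the naive difference of Cxcl2 changed sign, to -0.036, and the CybbKO response of Cxcl2 (adjusted p = 0.0607) and the mean response of Cxcl5 (adjusted p = 0.0551, both edgeR) were no longer called.

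On leaving out 1 library, some values changed sign, including the WT responses of Cxcl3 and Csf3 (0.99 and 0.90 with all libraries) and the interaction of Cxcl2 (0.74). The WT ligature response ranged from -0.77 to 1.12 for Cxcl1, -0.050 to 1.49 for Cxcl3 and -0.088 to 1.81 for Csf3, lowest in each without WT ligated 3, and the mean response of Cxcl1 from -0.085 to 0.86. The ligated difference ranged from -0.081 to 1.40 for Cxcl1 and -0.15 to 1.54 for Cxcl5. The naive difference ranged from -0.30 to 0.87 for Cxcl1, -0.21 to 0.89 for Cxcl2, -0.0067 to 0.48 for Cxcl3, -0.15 to 1.16 for Csf3 and -0.17 to 0.20 for Cxcr2. The interaction ranged from -0.52 to 1.37 for Cxcl1, -0.071 to 1.89 for Cxcl2, -0.17 to 1.34 for Cxcl3, -0.69 to 1.01 for Cxcl5 and -0.59 to 1.30 for Csf3. Without WT naive 1 and WT naive 3, an alternative chosen after seeing the data, the interaction was -0.36 for Cxcl1, -0.25 for Cxcl3 and -0.66 for Csf3, the mean response of Cxcl5 was no longer called (adjusted p = 0.0902, edgeR) and Cxcl2, Cxcr2 and Cxcr1 (adjusted p = 0.0395, edgeR) were called in the CybbKO response. Cxcr2 kept a positive interaction, from 1.01 to 1.61, in all 12 fits that left out 1 library. Depth limits the reading of Cxcr1 alone, while for the ligands and Csf3 the spread between mice does.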
